A study of Mus musculus with 8 samples.

Results

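Forkhead transcription factor genes were followed across 8 samples of malignant mesothelioma from mice, a cancer that arises in the membrane lining chest and abdomen. The 34 members were taken by symbol from the Fox gene family as Foxa1 to Foxs1, with Foxk1, Foxk2, Foxm1 and Foxp3 left out. They are 34 of the 52636 genes in each count table. Reads were numerous enough to test 20 members, among 17709 genes tested in all, and the other 14 are described by their counts. The triple knockout group held 6 samples deleted for Nf2, Cdkn2a and Bap1, and the double knockout group held 2 samples deleted for Nf2 and Cdkn2a with Bap1 left in place. All 8 samples therefore shared the loss of Nf2, which encodes the Hippo pathway regulator merlin, and of Cdkn2a, which encodes cell cycle inhibitors. Bap1 encodes a deubiquitinase of histone H2A, and the design asks which genes differ when it is lost as well, with targets of Polycomb repressive complex 2 (PRC2) of particular interest. The mice are described as conditional models, and the promoter or route of the recombinase is not given in the sources used here. The labels do not say whether samples came from separate mice or cultures, so each p-value here reflects only sample-to-sample spread, which may be technical.

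Forkhead proteins share a winged-helix DNA-binding domain that reads a core motif close to GTAAACA, and they split into classes with separate roles. FoxF, FoxC and FoxL factors pattern embryonic mesoderm and mesenchyme, often downstream of Hedgehog ligands, and FoxD factors act in neural crest and mesenchyme. FoxO factors are switched by insulin signalling: the kinase AKT phosphorylates them and they leave the nucleus, so that their transcript level is not their activity. FoxP factors are mostly repressors, FoxA factors open closed chromatin in endoderm, and Foxj1 drives motile cilia. FoxA, FoxC, FoxD, FoxF and FoxL genes are typical targets of Polycomb repression in cells that do not use them.

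Levels are given as CPM, counts scaled to a common library size and corrected for library composition. A gene is called, and said to have risen or fallen, where the Benjamini-Hochberg adjusted p of edgeR's quasi-likelihood test over all tested genes was under 0.05. Total counts were 28326756 to 30232440 in the triple samples and 32082535 and 26847202 in double samples 1 and 2. Double sample 1 stood apart, with a scaling factor of 0.771 against 0.994 to 1.10 in the other 7. The protocol describes cells kept in culture medium, yet transcripts of muscle, leukocytes and endothelium were counted in every sample. The summed level of 10 adult skeletal muscle markers was 131 to 11986 CPM in the triple samples, against 64781 and 2698 CPM in double samples 1 and 2. The sum of 10 embryonic muscle markers was 5.10 to 152 CPM in the triple samples, against 6367 and 1984 CPM in the double samples, and 9 of the 10 fell. The tumour label was checked on 11 mesothelial genes, and most were close to 0 outside triple sample 3. In that sample 7 of the 11 (Upk3b, Upk1b, Wt1, Krt19, Lrrn4, Gpm6a and Muc16) had their highest level, at 33.2 to 173 CPM, against at most 2.52 CPM in any other triple sample and 8.29 CPM in any double sample, a pattern noticed after the values were seen. Msln, the mesothelin gene, was at 12.6 to 194 CPM in the triple samples and 250.5 and 342 CPM in double samples 1 and 2. Krt8, an epithelial keratin, was at 1.23 to 179 CPM in the triple samples and 16.5 and 798 CPM in the double samples, and Calb2 had 1 count in all. The sum of the 11 was 54.99 to 946 CPM in the triple samples and 288 and 1345 CPM in the double samples. The 9 tested genes had a median log2 fold change of 3.39, with 6 positive and 3 negative, so the median and the levels of Msln and Krt8 ran in opposite directions. By edgeR 0 of the 9 were called, with 1 higher at an unadjusted p under 0.05 and 0 called by DESeq2 or limma-voom. Without triple sample 3 the log2 fold changes of the called forkhead genes were 2.06 for Foxf1, -1.49 for Foxc1 and -3.60 for Foxo6, all still called (adjusted p = 0.0495, 0.0374 and 0.0194), and -1.82 for Foxo1, which was not (adjusted p = 0.0600). The description code SN930 marks triple samples 4, 5 and 6 and double sample 1, other codes mark triple samples 1, 2 and 3 and double sample 2. Their meaning is not stated. Transcripts of the targeted genes check the labels weakly, since counts include exons outside the deleted part. Bap1 stood at 43.1 to 72.1 CPM (median 58.3) in the triple samples, against 105 and 71.1 CPM in the double samples, with a log2 fold change of -0.60 ± 0.22 (SE; edgeR adjusted p = 0.122). Nf2 was at 62.7 to 100.2 CPM in the triple samples and 165 and 109 CPM in the double samples (adjusted p = 0.103), and Cdkn2a at 4.05 to 8.76 CPM in the triple samples and 1.54 and 5.16 CPM in the double samples (adjusted p = 0.306).

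Of the 20 tested forkhead genes, 4 were called. Foxf1 rose in the triple samples, and Foxc1, Foxo1 and Foxo6 fell. Over all genes tested, 2.94% were called higher, 5.41% lower and 8.35% in either direction, so 1 of 20 higher and 3 of 20 lower stand beside those backgrounds. The groups did not overlap for 7 of the 20 members, 3 with every triple sample higher and 4 with every triple sample lower, against 24.1% of all tested genes, 12.8% higher and 11.4% lower. The log2 fold change was positive for 9 members and negative for 11, with a median of -0.46 against 0.02 over all tested genes. Double sample 1 was above all other samples for 10 of the 20, against 29.7% of all tested genes. At an unadjusted p under 0.05 by edgeR the count was 3 higher and 8 lower, against 11.8% of all tested genes higher and 16.1% lower.

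**Figure D1:**
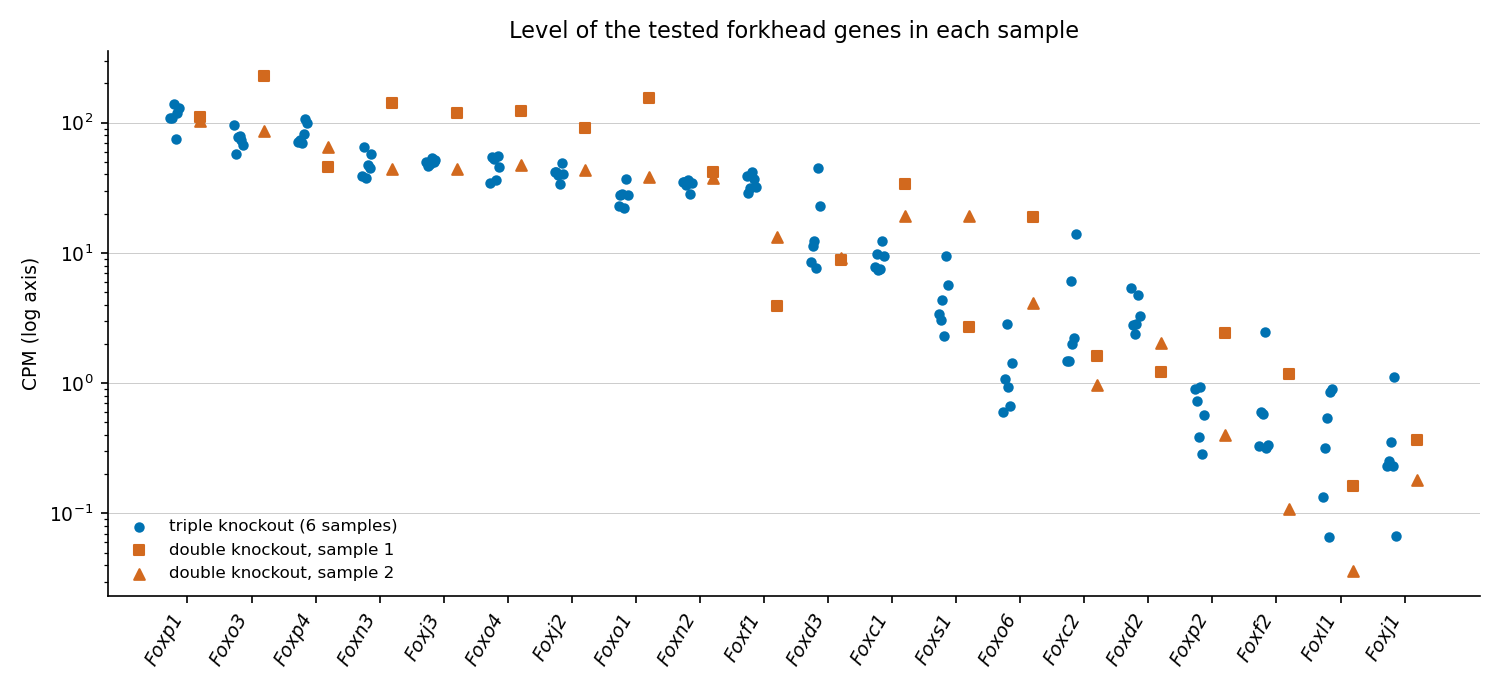
Level in CPM (log axis) of the 20 tested forkhead genes, ordered by their mean over all 8 samples. Each blue circle is a triple knockout sample, and the orange square and triangle are double samples 1 and 2. The 6 circles of Foxf1 lie at 28.6 to 41.9 CPM above both double samples, those of Foxc1 lie at 7.34 to 12.4 CPM below both, and the square stands above all other marks for 10 genes.

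Promoter sequences are shown for the called members with an entry in the RefSeq promoter table, Foxc1 and Foxo1, and for Fendrr, the non-coding gene that starts beside Foxf1. Each runs 5′ to 3′ on the gene's own strand from 250 bases before its start to 50 bases after it, on GRCm38.p6. The table held 25 promoters for 21 of the 34 members. Capitals mark matches on either strand to the forkhead core GTAAACA, the CCAAT box CCAAT and the GC box GGGCGG, and a GLI motif, GACCACCCA, was searched as well. Foxc1 lies at chr13:31806396-31806695 on the plus strand, Foxo1 at chr3:52268087-52268386 on the plus strand and Fendrr at chr8:121083061-121083360 on the minus strand.
Foxc1: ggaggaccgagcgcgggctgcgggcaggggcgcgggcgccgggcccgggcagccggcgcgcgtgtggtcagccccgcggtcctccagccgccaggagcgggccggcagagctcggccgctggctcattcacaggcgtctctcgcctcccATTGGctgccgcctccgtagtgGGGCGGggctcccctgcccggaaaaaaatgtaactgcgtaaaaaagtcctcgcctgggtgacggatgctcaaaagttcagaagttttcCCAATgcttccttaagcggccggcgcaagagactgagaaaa
Foxo1: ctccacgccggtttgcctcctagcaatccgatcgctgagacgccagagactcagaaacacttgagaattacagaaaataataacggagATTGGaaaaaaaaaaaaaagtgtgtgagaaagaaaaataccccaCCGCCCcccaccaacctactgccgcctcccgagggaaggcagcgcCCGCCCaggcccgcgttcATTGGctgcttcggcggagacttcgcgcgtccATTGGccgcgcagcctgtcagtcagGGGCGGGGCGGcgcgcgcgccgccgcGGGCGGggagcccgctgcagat
Fendrr: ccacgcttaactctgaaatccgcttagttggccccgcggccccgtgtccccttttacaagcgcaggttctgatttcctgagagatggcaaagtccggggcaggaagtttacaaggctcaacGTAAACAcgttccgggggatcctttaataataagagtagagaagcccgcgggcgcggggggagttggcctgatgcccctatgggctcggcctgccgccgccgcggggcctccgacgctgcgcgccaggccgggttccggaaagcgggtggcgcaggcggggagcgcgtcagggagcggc
The Foxc1 promoter held 2 CCAAT boxes and 1 GC box, and the Foxo1 promoter held 3 CCAAT boxes and 5 GC boxes, of which a neighbouring pair shared a base. The Fendrr promoter held the forkhead core once, at bases 122 to 128 counted from the first base printed. Among all 32851 promoters in the table, 3.65% held the forkhead core, 37.4% a CCAAT box, 35.7% a GC box and 0.253% the GLI motif. Among the 25 member promoters, 1 held the forkhead core, 11 a CCAAT box, 20 a GC box and 0 the GLI motif. The promoters are rich in CpG dinucleotides: Foxc1 had 32 in its 300 bases with 67.3% G or C, Foxo1 had 31 with 61.3%, and Fendrr had 31 with 64.7%. As many as 32 were found in 9.52% of all promoters and 31 in 10.6%. The median was 23 CpG over the member promoters and 7 over all promoters. These matches describe letters in a window and are not evidence of binding.

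Foxf1, a factor of lung and gut mesenchyme and of pulmonary vessels that responds to Hedgehog ligands in mouse embryos, was the member that rose. It lies on chromosome 8 at 121084386 to 121088144 (GRCm38, plus strand), in 2 exons. In the triple samples it stood at 28.6 CPM at the lowest, 34.5 CPM at the median and 41.9 CPM at the highest, against 3.92 and 13.2 CPM in double samples 1 and 2. The lowest triple sample was well above the higher double sample, and the double samples themselves lay far apart. The mean was 35.0 ± 5.15 CPM (SD, n = 6) in triple samples and 8.56 ± 6.56 CPM (SD, n = 2) in double samples, a 4.08-fold difference with a log2 fold change of 2.03 ± 0.44 (SE) and an edgeR adjusted p of 0.0290. In bulk RNA, fewer cells that express a gene and less transcript per cell cannot be told apart, here and for every gene below. The log2 fold change was 1.40 with an adjusted p of 0.0510 without double sample 1, and without double sample 2 it was 3.17 with an adjusted p of 0.00127. The call was also lost without triple sample 1, 4, 5 or 6, at adjusted p of 0.0626, 0.0544, 0.0561 and 0.0520. Fits without 1 triple sample called 635 to 930 genes in all, against 1478 in the main fit. Calls lost in these fits, here and for the genes below, stand beside that fall. The same holds for the fit within the other codes, where almost no gene was called. Within code SN930 the log2 fold change was 3.26 (adjusted p = 0.0303), and within the other codes it was 1.31 (adjusted p = 0.215), with 3 triple samples and 1 double sample in each.

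Fendrr, a long non-coding RNA that begins 1276 bases upstream of Foxf1 on the opposite strand, rose further than Foxf1. It is known from lateral mesoderm of mouse embryos, where it has been reported to bind PRC2. Fendrr stood at 15.7 to 29.0 CPM with a median of 23.1 CPM in the triple samples, against 0.809 and 2.63 CPM in double samples 1 and 2. All 6 triple samples were above both double samples by a wide margin. The log2 fold change was 3.72 ± 0.51 (SE) with an edgeR adjusted p of 0.00608, and it was 3.10 (adjusted p = 0.0161) without double sample 1 and 4.82 (adjusted p = 0.00120) without double sample 2. Within code SN930 it was 4.65 (adjusted p = 0.0303), and within the other codes 3.25 (adjusted p = 0.116). The next gene past the other end of Foxf1 is Mthfsd, 3484 bases away. It stood at 32.1 to 45.5 CPM with a median of 42.6 CPM in the triple samples, against 12.7 and 28.8 CPM in the double samples. The groups were apart for Mthfsd too, yet its log2 fold change of 0.94 ± 0.32 (SE) did not pass the test (edgeR adjusted p = 0.0999).

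Foxc2 and Foxl1 start 31.8 and 43.6 kb from the Foxf1 start in the same direction. Foxc2, known for its role in lymphatic vessels and somites, was at 1.49 to 14.0 CPM with a median of 2.10 CPM in the triple samples, against 1.62 and 0.974 CPM in double samples 1 and 2. The groups overlapped, and triple samples 3 and 6, at 6.12 and 14.0 CPM, were the high ones (log2 fold change 1.81 ± 1.04, SE; edgeR adjusted p = 0.284). Foxl1, a factor of gut mesenchyme, was near the limit of detection at 0.0663 to 0.900 CPM in the triple samples, against 0.162 and 0.0361 CPM in the double samples. Its log2 fold change was 2.22 ± 1.14 (SE; edgeR adjusted p = 0.237), and 3 counts corresponded to 0.0949 to 0.121 CPM, so several of these values rest on very few reads. An annotated gene that spans Foxf1, Foxc2 and Foxl1, Gm20388, had 0 counts in all 8 samples.

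**Figure D2:**
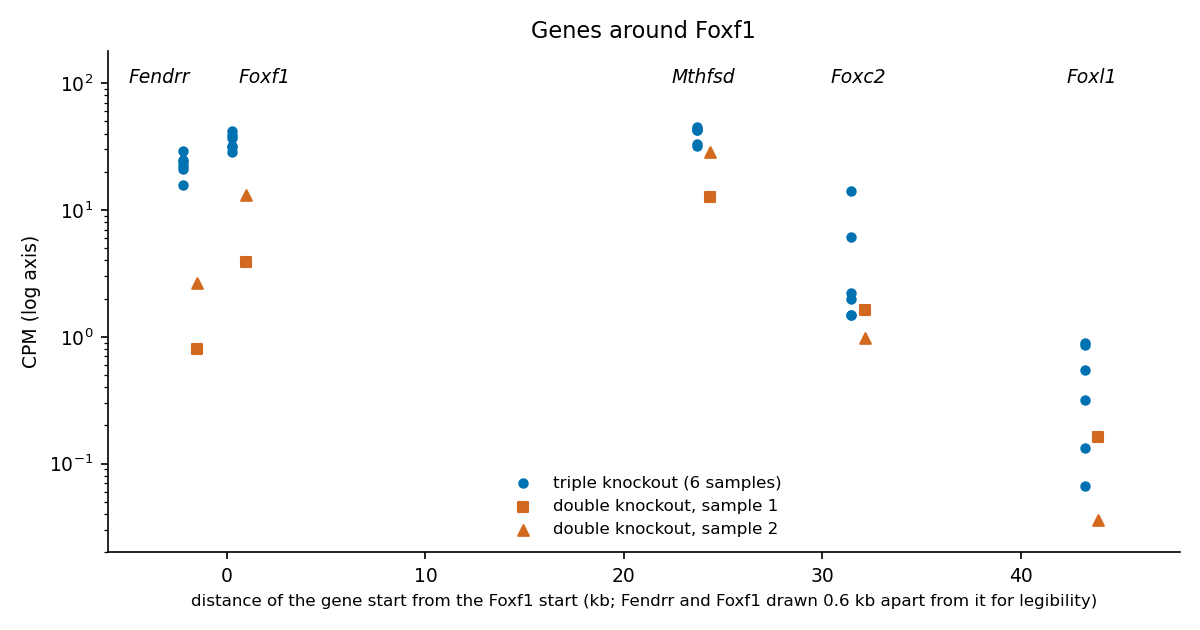
Level in CPM (log axis) of the genes around Foxf1 against the distance of their start from the Foxf1 start, in kb. Blue circles are the 6 triple samples, and the orange square and triangle are double samples 1 and 2. The groups are apart for Fendrr, Foxf1 and Mthfsd and overlap for Foxc2 and Foxl1.

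No pair of neighbouring genes passed a test of correlation within the triple group. For 7 pairs over the 6 triple samples, Pearson's r of log2 CPM with a prior count of 2 was tested by exact 2-sided permutation. The smallest p this allows is 0.00278 where no values tie. Foxf1 and Fendrr had r = 0.28 and Spearman's rho = 0.03 (exact p = 0.639 and 1.00, adjusted p = 0.639 and 1.00), and r was 0.62 once the 2 samples farthest from the Foxf1 median were left out. Foxf1 had r = -0.36 with Foxc2 and -0.57 with Foxl1, and Foxc2 had r = 0.64 with Foxl1 (exact permutation p = 0.478, 0.236 and 0.150). Without the 2 samples farthest from the median of the gene named first, these r were -0.90, -0.61 and 0.36. On chromosome 13, Foxc1 had r = -0.84 and rho = -0.94 with Foxq1 (exact p = 0.0167 for both, adjusted p = 0.117), and r was -0.91 without the 2 samples farthest from the Foxc1 median. Foxq1 had 19 counts over the 6 triple samples, so that value rests on few reads. It had 0 counts in triple samples 2, 5 and 6, and with these ties 0.0167 is the smallest p that a pair with Foxq1 can reach. By itself such a pair could not pass after adjustment over the 7 pairs, so its failure to pass decides nothing. Foxc1 with Foxf2 had r = -0.49 and Foxf2 with Foxq1 had r = 0.66 (exact permutation p = 0.275 and 0.250). With 2 samples left out in the same way, these r were -0.49 and 0.31.

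Foxc1, a factor of somites, skull, eye and vessels, fell in the triple samples. It is a gene of 1 exon on chromosome 13 at 31806633 to 31812476 (GRCm38, plus strand), and its promoter is printed above. It stood at 7.34 CPM at the lowest, 8.68 CPM at the median and 12.4 CPM at the highest in the triple samples, against 33.7 and 19.1 CPM in double samples 1 and 2. Every triple sample was below both double samples. The mean was 9.09 ± 1.93 CPM (SD, n = 6) in triple samples and 26.4 ± 10.3 CPM (SD, n = 2) in double samples, which is 2.91-fold lower, with a log2 fold change of -1.54 ± 0.29 (SE) and an edgeR adjusted p of 0.0190. The call held without double sample 2, at a log2 fold change of -1.88 and adjusted p of 0.00443, and without any single triple sample. It was lost without double sample 1, at a log2 fold change of -1.08 and an adjusted p of 0.158. Within code SN930 it was -1.76 (adjusted p = 0.0522), and within the other codes -1.21 (adjusted p = 0.260). The direction was therefore the same against either double sample.

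Foxf2 and Foxq1 are the other forkhead genes near Foxc1, with Foxf2 69.7 kb and Foxc1 250 kb from the start of Foxq1. Foxf2, a mesenchymal factor of palate, gut and brain pericytes, was at 0.317 to 2.45 CPM with a median of 0.455 CPM in the triple samples, against 1.17 and 0.108 CPM in the double samples. The groups overlapped, and triple sample 4 alone held the high value (log2 fold change 0.27 ± 1.05, SE; edgeR adjusted p = 0.889). Foxq1 had 25 counts in double sample 1, at 1.01 CPM, and at most 9 counts in any other sample. No gene within 10 kb of Foxc1 was called.

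The tested FoxD and FoxS genes of embryonic mesenchyme and neural crest, Foxd2, Foxd3 and Foxs1, did not pass the test. Foxd2 was at 2.41 to 5.41 CPM with a median of 3.06 CPM in the triple samples, against 1.21 and 2.02 CPM in double samples 1 and 2. The groups were apart, with every triple sample higher, and the log2 fold change was 1.14 ± 0.46 (SE; edgeR adjusted p = 0.150). Foxd2os, a non-coding gene 384 bases away, was at 7.63 to 14.4 CPM in the triple samples and 3.28 and 7.83 CPM in the double samples (edgeR adjusted p = 0.175). Foxd3, which keeps neural crest and pluripotent cells undifferentiated, was at 7.72 to 44.9 CPM with a median of 11.9 CPM in the triple samples, against 8.78 and 9.20 CPM in the double samples. The double samples were close together, while triple samples 5 and 6 reached 44.9 and 22.8 CPM (log2 fold change 1.00 ± 0.70, SE; edgeR adjusted p = 0.379). Foxs1, a factor of pericytes and sensory neurons, was at 2.29 to 9.47 CPM in the triple samples, against 2.71 and 19.1 CPM in double samples 1 and 2. The double samples lay on either side of the triple median of 3.89 CPM, and the sign of the log2 fold change, -1.21 ± 0.69 (SE; edgeR adjusted p = 0.278), depended on double sample 2, being 0.81 without it. Foxd1, a factor of kidney stroma, had 13 counts over all 8 samples.

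Among the FoxO genes, Foxo6 and Foxo1 fell in the triple samples, and Foxo3 and Foxo4 did not pass edgeR's test. Foxo6, a FoxO factor best known from the brain, lies on chromosome 4 at 120267079 to 120287349 (GRCm38, minus strand). It stood at 0.597 CPM at the lowest, 1.00 CPM at the median and 2.82 CPM at the highest in the triple samples, against 18.8 and 4.15 CPM in double samples 1 and 2. Every triple sample was below both double samples, and double sample 1 was far above double sample 2. The mean was 1.25 ± 0.825 CPM (SD, n = 6) in triple samples and 11.5 ± 10.3 CPM (SD, n = 2) in double samples, which is 9.11-fold lower, with a log2 fold change of -3.19 ± 0.65 (SE) and an edgeR adjusted p of 0.0248. Leaving out double sample 1 gave -1.73 with an adjusted p of 0.330, and the call was lost without triple sample 1, 4 or 5 as well, at adjusted p of 0.0534, 0.0528 and 0.0506. Within code SN930 it was -4.19 (adjusted p = 0.0325), and within the other codes -1.47 (adjusted p = 0.559).

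Foxo1, the FoxO factor of liver, muscle, endothelium and lymphocytes, lies on chromosome 3 at 52268336 to 52353221 (GRCm38, plus strand). It stood at 21.9 CPM at the lowest, 27.9 CPM at the median and 36.8 CPM at the highest in the triple samples, against 156 and 38.4 CPM in double samples 1 and 2. The groups did not overlap, but the highest triple sample came close to double sample 2. The mean was 27.7 ± 5.25 CPM (SD, n = 6) in triple samples and 97.1 ± 82.9 CPM (SD, n = 2) in double samples, which is 3.50-fold lower, with a log2 fold change of -1.81 ± 0.40 (SE) and an edgeR adjusted p of 0.0322. Double sample 1 decided the size: without it the log2 fold change was -0.48 with an adjusted p of 0.469, and without double sample 2 it was -2.48 with an adjusted p of 0.00108. The call was lost without each triple sample in turn, at adjusted p of 0.0503 to 0.0709. The log2 fold change moved little in these fits, at -1.91 to -1.75, and calls over all genes fell as well. Within code SN930 it was -2.41 (adjusted p = 0.0331), and within the other codes -0.54 (adjusted p = 0.410).

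Foxo3, a FoxO factor of muscle, ovary and blood stem cells, was at 57.6 to 95.9 CPM with a median of 75.7 CPM in the triple samples, against 230 and 86.8 CPM in double samples 1 and 2. Double sample 2 lay inside the triple range and double sample 1 far above it (log2 fold change -1.08 ± 0.32, SE; edgeR adjusted p = 0.0702). Foxo3 was called by DESeq2 (log2 fold change -1.12, adjusted p = 0.0339), within code SN930 (-1.63, adjusted p = 0.0322) and without double sample 2 (-1.60, adjusted p = 0.00307), but not within the other codes (-0.19, adjusted p = 0.826). Foxo4, an X-linked member, followed the same order at 34.3 to 55.4 CPM in the triple samples, against 124 and 47.2 CPM in the double samples (log2 fold change -0.88 ± 0.33, SE; edgeR adjusted p = 0.131). The log2 fold changes of Foxo3 and Foxo4 were -0.22 and -0.03 without double sample 1. The summed FoxO level was 138 to 167 CPM in the triple samples, against 528 and 177 CPM in double samples 1 and 2. Measured per kb of exon, so that the genes can be set side by side, Foxo6 made up 0.843% to 3.65% of the FoxO sum in the triple samples, against 7.88% and 5.11% in the double samples. Foxo1 made up 10.5% to 14.1% in the triple samples, against 19.7% and 14.3% in the double samples. Foxo3 and Foxo4 held the rest, with Foxo4 at 38.8% to 58.1% in the triple samples, against 39.0% and 43.6% in the double samples.

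**Figure D3:**
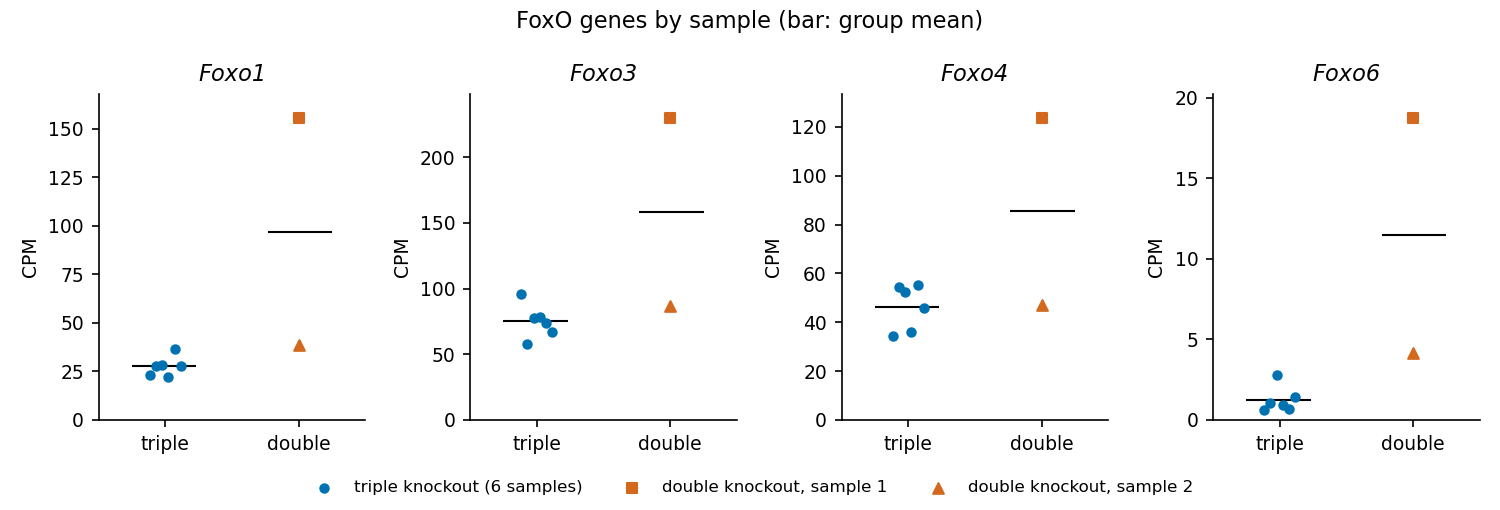
Level in CPM of the 4 FoxO genes by sample, each on its own axis from 0. Blue circles are the triple samples, the orange square and triangle are double samples 1 and 2, and the bar is the group mean. Double sample 1 is the highest for each gene, at 156 CPM for Foxo1 and 18.8 CPM for Foxo6, and double sample 2 is above all circles for Foxo1 and Foxo6 only.

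Genes that control FoxO proteins or are known to be driven by them were described beside the members. Of 20 genes of insulin, PI3K and AKT signalling, all tested, 0 rose, 3 fell and 17 were not called by edgeR, and their log2 fold changes had a median of -0.22. At an unadjusted p under 0.05 the count was 1 higher and 7 lower, DESeq2 called 1 higher and 4 lower, and limma-voom 0 higher and 3 lower. Over all genes tested, 11.8% were higher and 16.1% lower at that unadjusted p. In either direction DESeq2 called 3369 of 31002 genes and limma-voom 1070 of 17709. The counts of every list in this report stand beside these shares. The 3 that fell carry the insulin signal into the cell. The insulin receptor Insr was at 36.4 to 48.5 CPM with a median of 42.9 CPM in the triple samples, against 121 and 70.5 CPM in the double samples (log2 fold change -1.15 ± 0.21, SE; edgeR adjusted p = 0.0179). The adaptor Irs2 was at 19.3 to 54.0 CPM in the triple samples, against 288 and 93.1 CPM in the double samples (log2 fold change -2.27 ± 0.43, SE; edgeR adjusted p = 0.0197). The adaptor Irs1 was at 20.1 to 48.4 CPM in the triple samples, against 91.7 and 88.5 CPM in the double samples (log2 fold change -1.41 ± 0.29, SE; edgeR adjusted p = 0.0248). The groups were apart for all 3, and each kept its call without any single triple sample. Without double sample 1 their log2 fold changes were -0.72, -1.25 and -1.39 with adjusted p of 0.135, 0.236 and 0.131, in the order Insr, Irs2 and Irs1.

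Of 26 known FoxO target genes, 24 were tested: 0 rose, 4 fell and 20 were not called by edgeR, and the median of their log2 fold changes was -0.97. At an unadjusted p under 0.05 the count was 1 higher and 12 lower, against 11.8% of all tested genes higher and 16.1% lower. DESeq2 called 1 higher and 9 lower, and limma-voom 0 higher and 2 lower. Over all genes these tools called 3369 of 31002 and 1070 of 17709. Fbxo32, the ubiquitin ligase atrogin-1 of muscle wasting, was at 14.5 to 62.9 CPM with a median of 21.1 CPM in the triple samples, against 884 and 155 CPM in the double samples (log2 fold change -4.03 ± 0.68, SE; edgeR adjusted p = 0.0134). Gadd45a, a stress and DNA damage gene, was at 8.45 to 42.8 CPM with a median of 11.5 CPM in the triple samples, against 356 and 70.1 CPM in the double samples (log2 fold change -3.71 ± 0.67, SE; edgeR adjusted p = 0.0170). The antiproliferative gene Tob1 fell by 2.38 ± 0.54 on the log2 scale (SE; edgeR adjusted p = 0.0341) and Klf15, a metabolic regulator of muscle and liver, by 4.36 ± 0.99 (SE; edgeR adjusted p = 0.0346). Neither was called by limma-voom (adjusted p = 0.127 and 0.402). Tob1 was at 15.3 to 32.1 CPM in the triple samples, against 196 and 27.4 CPM in double samples 1 and 2, so its groups overlapped. Klf15 was at 1.46 to 4.97 CPM in the triple samples, against 157 and 1.62 CPM in double samples 1 and 2, so its difference came from double sample 1, and the sign turned to 1.25 without it. Without double sample 1 the log2 fold changes were nearer 0, at -2.29 for Fbxo32, -2.11 for Gadd45a and -0.35 for Tob1. Fbxo32 and Gadd45a kept their call without any single triple sample, while Klf15 lost it without each in turn (adjusted p = 0.0598 to 0.0726) and Tob1 kept it without only 1 of the 6 (adjusted p = 0.0472 to 0.0737). The summed level of the list was 1069 to 1416 CPM in the triple samples, against 5895 and 1291 CPM in double samples 1 and 2. Double sample 1 was thus the sample with the highest FoxO sum, the highest target sum and the highest adult muscle marker sum. Outside double sample 1 the adult muscle marker sum was 131 to 11986 CPM in the triple samples and 2698 CPM in double sample 2. The FoxO sum there was 138 to 167 CPM and 177 CPM. The part of adult muscle in the FoxO results was not tested.

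Members expressed in most tissues, Foxj2, Foxj3, Foxn2 and Foxn3, were all measured well and none was called. Foxn3, a factor linked to cell cycle checkpoints, was at 37.8 to 65.0 CPM with a median of 46.2 CPM in the triple samples, against 142 and 44.0 CPM in double samples 1 and 2 (log2 fold change -0.94 ± 0.38, SE; edgeR adjusted p = 0.149). Foxj3, known in mouse for roles in muscle and sperm formation, was at 46.2 to 53.9 CPM in the triple samples, against 118 and 43.8 CPM in the double samples (log2 fold change -0.70 ± 0.30, SE; edgeR adjusted p = 0.166). Foxj2 was at 33.99 to 48.9 CPM in the triple samples, against 91.4 and 43.3 CPM in the double samples (log2 fold change -0.71 ± 0.26, SE; edgeR adjusted p = 0.121). In all 3, double sample 1 was high and double sample 2 was within or just below the triple range. Leaving out double sample 1 gave log2 fold changes of 0.14 for Foxn3, 0.18 for Foxj3 and -0.08 for Foxj2. Foxn2 was even across samples, at 28.2 to 36.0 CPM with a median of 34.9 CPM in the triple samples, against 41.6 and 37.3 CPM in the double samples. Its groups were apart by a small step, with a log2 fold change of -0.23 ± 0.16 (SE; edgeR adjusted p = 0.382).

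The FoxP repressors included members of high level, and none was called. Foxp4 was at 69.3 to 106 CPM with a median of 77.4 CPM in the triple samples, against 45.7 and 65.3 CPM in double samples 1 and 2. Every triple sample was above both double samples, at a log2 fold change of 0.59 ± 0.24 (SE; edgeR adjusted p = 0.150). Foxp1, a factor of heart, lung and B cells, was at 75.3 to 139 CPM with a median of 114 CPM in the triple samples, against 111 and 103 CPM in the double samples. The log2 fold change of 0.08 ± 0.23 (SE; edgeR adjusted p = 0.846) was smaller than its error. Foxp2, known from brain and lung, was at 0.285 to 0.928 CPM in the triple samples, against 2.43 and 0.397 CPM in the double samples (edgeR adjusted p = 0.284). The summed FoxP level was 158 to 228 CPM in the triple samples, against 159 and 169 CPM in the double samples.

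**Figure D4:**
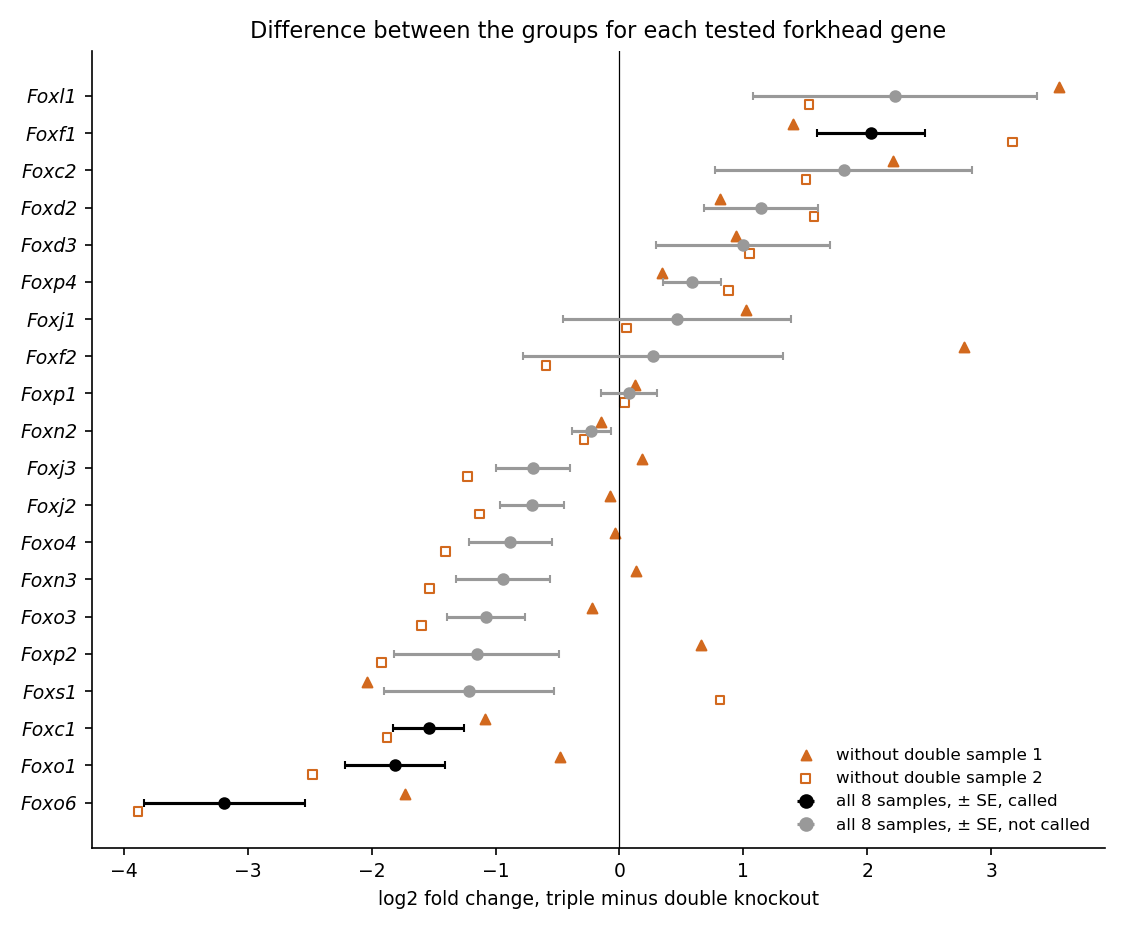
Log2 fold change, triple minus double knockout, of the 20 tested forkhead genes. Circles with bars are the estimate over all 8 samples ± SE, black where called and grey where not; triangles leave out double sample 1 and open squares double sample 2. Foxf1 at 2.03, Foxc1 at -1.54, Foxo1 at -1.81 and Foxo6 at -3.19 are black, and for Foxj3, Foxn3, Foxp2, Foxs1 and Foxf2 the triangle and the square lie on opposite sides of 0.

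Per kb of exon the leading members differed in order between the groups. In the triple samples Foxp4 had the highest mean at 16.9 CPM per kb, followed by Foxf1 with 14.5, Foxo4 with 13.3 and Foxo3 with 9.91 CPM per kb. In the double samples Foxo4 led with 24.5 CPM per kb, followed by Foxo3 with 20.9, Foxj2 with 12.6 and Foxp4 with 11.3 CPM per kb, and Foxf1 was at 3.55 CPM per kb. The double group means of Foxo4, Foxo3 and Foxj2 rest largely on double sample 1, while double sample 2 was the higher for Foxp4 and Foxf1. The order was not tested. In CPM, 12 members had a mean of at least 10 over the 8 samples: Foxc1, Foxd3, Foxf1, Foxj2, Foxj3, Foxn2, Foxn3, Foxo1, Foxo3, Foxo4, Foxp1 and Foxp4. Another 4, Foxc2, Foxd2, Foxo6 and Foxs1, were between 1 and 10 CPM. A further 7, Foxa2, Foxf2, Foxj1, Foxl1, Foxp2, Foxq1 and Foxr1, were between 0.1 and 1 CPM. The last 11, Foxa1, Foxa3, Foxb1, Foxd1, Foxd4, Foxe1, Foxh1, Foxi1, Foxl2, Foxn1 and Foxn4, were under 0.1 CPM.

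The 14 members too low to test had 0 to 158 counts over all samples, against 84 to 26524 for the tested members. Foxa2, a pioneer factor of endoderm, had 157 counts in triple sample 3, 1 count in triple sample 6 and 0 counts in the other 6 samples. That is 5.03 CPM in triple sample 3. The non-coding gene 9030622O22Rik, 2674 bases from Foxa2, had 18 counts, all in triple sample 3 as well. This is the sample in which 7 of the 11 mesothelial markers were highest, and their part in the Foxa2 level was not tested. Foxa1 and Foxa3, the other pioneer factors, had 4 and 5 counts over all samples. Foxl2, the ovarian factor, had 5 counts, all in triple sample 2, and Foxh1, which acts with Smad proteins, had 0 counts in the triple samples and 1 and 2 counts in the double samples. Foxr1 had 25 counts, 10 of them in triple sample 5. The hypothalamic factor Foxb1 and the ionocyte factor Foxi1 had 0 counts in all 8 samples, which allows up to 3 counts or 0.121 CPM in a library. Foxn1 of thymic epithelium had 3 counts, and Foxd4, Foxe1 of the thyroid and Foxn4 of retina and spinal cord had 1 count each.

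Foxj1, the regulator of motile cilia, was tested but low, at 0.0667 to 1.11 CPM with a median of 0.243 CPM in the triple samples, against 0.364 and 0.180 CPM in the double samples. Triple sample 5 held the high value, and the groups overlapped (log2 fold change 0.46 ± 0.92, SE; edgeR adjusted p = 0.770). Of 21 motile cilia genes, 19 were in the tables, with 9 tested and 0 called by edgeR. The median log2 fold change of the 9 was -1.33. At an unadjusted p under 0.05, 0 were higher and 4 lower, DESeq2 called 1 lower and limma-voom 0. Tekt4 and Sntn had 0 counts in all samples. The genes of highest level were Tppp3, a tubulin-binding protein, at 13.9 to 91.0 CPM in the triple samples, against 159 and 95.4 CPM in the double samples (edgeR adjusted p = 0.142), and the transcription factor Rfx3 (edgeR adjusted p = 0.144).

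**Figure D5:**
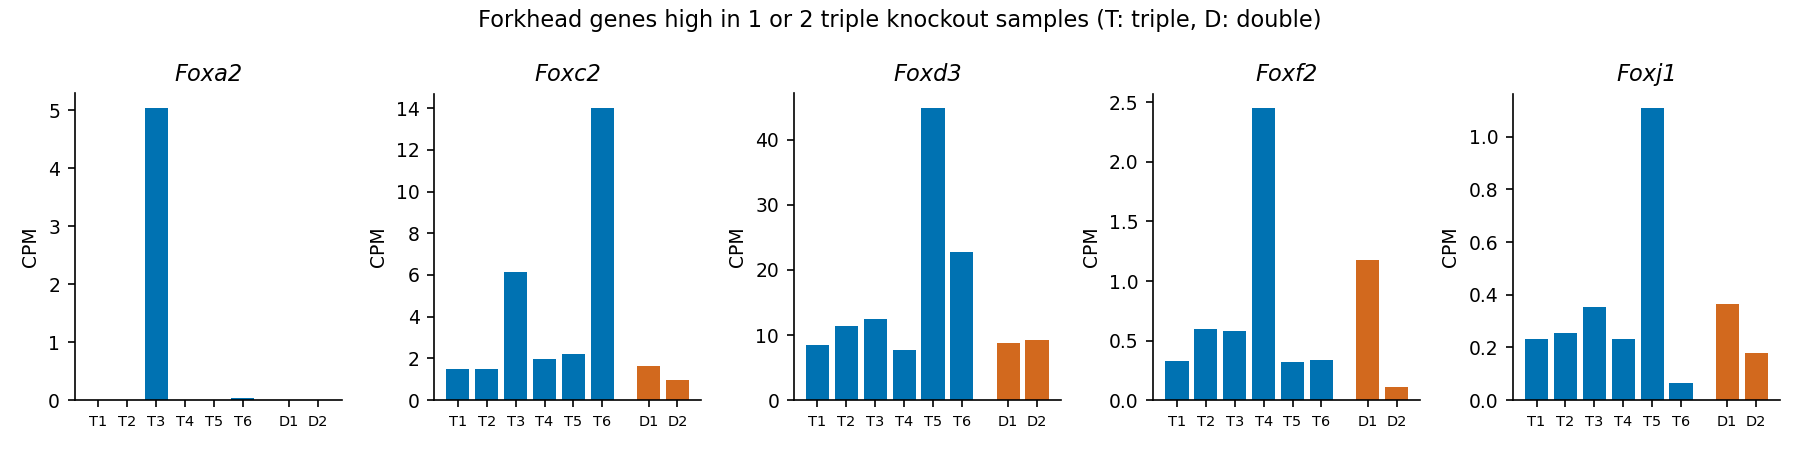
Level in CPM, on axes from 0, of 5 forkhead genes that are high in 1 or 2 triple samples. Blue bars are triple samples 1 to 6 (T1 to T6) and orange bars are double samples 1 and 2 (D1 and D2). Foxa2 is highest in triple sample 3 at 5.03 CPM, Foxc2 in triple sample 6 at 14.0 CPM, Foxf2 in triple sample 4 at 2.45 CPM, and Foxd3 and Foxj1 in triple sample 5 at 44.9 and 1.11 CPM.

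Hedgehog signalling, to which Foxf1, Foxf2, Foxc2 and Foxl1 are known to respond in mesenchyme, had 16 listed genes, of which 14 were tested: 1 rose, 1 fell and 12 were not called by edgeR. The median log2 fold change was 0.09. At an unadjusted p under 0.05 the count was 5 higher and 1 lower, DESeq2 called 6 higher and 1 lower, and limma-voom 0 higher and 1 lower, with an adjusted p of 0.0762 for Gli2. Gli2, a transcription factor that carries the Hedgehog signal, was at 18.8 to 79.2 CPM with a median of 35.9 CPM in the triple samples, against 6.83 and 5.81 CPM in the double samples. All triple samples were above both double samples, which were close together (log2 fold change 2.64 ± 0.57, SE; edgeR adjusted p = 0.0298). Cdon, a Hedgehog co-receptor that also promotes muscle differentiation, was at 19.0 to 84.3 CPM with a median of 31.3 CPM in the triple samples, against 151 and 243 CPM in the double samples. Every triple sample was below both double samples (log2 fold change -2.32 ± 0.47, SE; edgeR adjusted p = 0.0250). Without double sample 1 neither was called, at 2.75 (adjusted p = 0.164) for Gli2 and -2.63 (adjusted p = 0.0803) for Cdon. The Gli2 call was also lost without double sample 2 (adjusted p = 0.0523) and without triple sample 1, 4 or 6 (adjusted p = 0.0570, 0.0544 and 0.0557). The Cdon call was lost without triple sample 1 or 5 (adjusted p = 0.0588 and 0.0501).

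Genes at or beside the forkhead loci were mostly not called. Within 10 kb of a member lay 62 other genes, of which 20 were tested, with 2 higher, 0 lower and 18 not called by edgeR, and a median log2 fold change of -0.01. At an unadjusted p under 0.05, 4 were higher and 1 lower, DESeq2 called 3 higher and 1 lower, and limma-voom 2 higher and 0 lower. The called genes were Fendrr and Unc119, a lipid-binding trafficking protein whose gene lies 8413 bases from Foxn1. Unc119 was at 17.1 to 23.1 CPM in the triple samples, against 6.15 and 11.04 CPM in the double samples (log2 fold change 1.21 ± 0.28, SE; edgeR adjusted p = 0.0371). It kept its call without double sample 2 and lost it without double sample 1 (log2 fold change 0.84, adjusted p = 0.172) and without each triple sample in turn (adjusted p = 0.0572 to 0.0691). Genes that overlap a member, 26 in number over 16 members, had at most 867 counts over all samples. That gene, Frg2f1, overlaps the start of Foxj3 on the opposite strand, and Foxj3 had 13346 counts.

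Markers of other cell types moved with the groups in part. Of 9 fibroblast and pericyte markers, all tested, 2 rose, Pdgfra (log2 fold change 1.83, edgeR adjusted p = 0.0322) and Cd34 (log2 fold change 1.70, edgeR adjusted p = 0.0476), and none of the 9 was at 0 counts. Their sum was 10258 to 35398 CPM in the triple samples, against 8986 and 9680 CPM in the double samples. Of 10 leukocyte markers 2 rose, Cd68 (log2 fold change 1.26, edgeR adjusted p = 0.0279) and Itgam (log2 fold change 1.89, edgeR adjusted p = 0.0430). The sum of the 10 was 1664 to 2498 CPM in the triple samples, against 859 and 1718 CPM in the double samples. At an unadjusted p under 0.05 by edgeR, 3 leukocyte markers were higher and 2 lower. DESeq2 and limma-voom each called 3 higher and 0 lower. Of 10 endothelial markers, 1 fell, the angiopoietin receptor Tek (log2 fold change -1.83, edgeR adjusted p = 0.0499), and their sum was 238 to 566 CPM in the triple samples, against 471 and 370 CPM in the double samples. Tek was at 9.91 to 22.7 CPM in the triple samples, against 89.7 and 20.8 CPM in double samples 1 and 2, so its groups overlapped. Without double sample 1 the log2 fold change of Tek was -0.43. Of 9 lung epithelial markers only 2 were tested, Epcam rose (log2 fold change 2.90, edgeR adjusted p = 0.0349), Sftpa1 and Nkx2-1 had 0 counts, and the sum was 4.37 to 12.2 CPM in the triple samples, against 4.81 and 7.54 CPM in the double samples. Of 10 embryonic muscle markers 9 fell, among them the myogenic factor Myf5 at 0.0321 to 0.697 CPM in the triple samples, against 44.1 and 32.4 CPM in the double samples. The 10 adult muscle markers had a median log2 fold change of -2.33, and 0 were called by edgeR, with 3 lower at an unadjusted p under 0.05, 2 lower by DESeq2 and 0 by limma-voom. Without double sample 1, 3 embryonic muscle markers were called and 0 of the endothelial, leukocyte, fibroblast and lung epithelial markers. Tek, Itgam and Cd34 also lost their call without each triple sample in turn, and Cd68, Epcam and Pdgfra kept it in 2 of those 6 fits. The fibroblast and pericyte sum was higher in every triple sample than in both double samples, as Foxf1 and Fendrr were, and the embryonic muscle sum was lower in every triple sample, as Foxc1, Foxo1 and Foxo6 were. Within the triple group, samples 3 and 6 had the lowest and highest fibroblast and pericyte sums, at 10258 and 35398 CPM. In these samples Foxf1 was at 31.3 and 32.1 CPM and Fendrr at 24.7 and 15.7 CPM. The part of these cell types in the forkhead results was not tested.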

How the data were processed

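The authors deposited integer counts of reads for every gene in a table for each sample. HTSeq, DESeq2, mm10 and GRCm38 are named in the submitters' processing notes without a role. No source used here gives the aligner, the annotation release or the use of strand, so a gene and its antisense partner may share reads. Symbols were found for 52403 of 52636 genes, and exon lengths come from GENCODE M21. After filterByExpr and TMM scaling, edgeR 4.0.16 (R 4.3.3) tested triple minus double over 8 samples with no covariate. SE came from the test statistic. Any pair of samples differed beyond sampling noise (median chi-square of at least 8.29 per gene). The floor is 3 counts per library and covers counting error only.

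Members and lists were chosen with earlier results of these data known. Called members, and members with groups apart and a mean of at least 1 CPM in the higher group, were given by sample, and the others by level class. From each list except the muscle markers up to 4 called genes of smallest p were named, or the 2 of highest level where none was called. Of the embryonic muscle markers only Myf5 was named, and of the adult muscle markers none. Alternatives were DESeq2 1.42.0, limma-voom (limma 3.58.1), RLE scaling, no filter on low counts, 1 CPM in 2 samples, the description code as a term or within code, each sample left out and, for correlations, a prior count of 0.5. Where 1 double sample remains, its spread is taken to equal that of the triple samples. Replicate numbers only name samples. The edgeR fit was tried on simulated counts with the same spread in both groups, which cannot speak for calls that rest on double sample 1.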

Additional observations from a re-analysis of the deposited data

Results flagged for a closer look

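In each of 4 forkhead genes, 1 of the 6 triple samples stood farther from the others than the 95% limit of Dixon's test. This was among 23 members examined. The limit flags about 1 in 20 such groups by chance if values follow a normal distribution. It was applied here to CPM, and Foxa2, Foxf2 and Foxj1 rest on few counts in most triple samples. That rate therefore cannot be applied here, and whether 4 of 23 exceeds chance was not tested. Foxa2 was at 5.03 CPM in triple sample 3 and at 0 to 0.0333 CPM in the other triple samples. Foxc2 was at 14.0 CPM in triple sample 6 and at 1.49 to 6.12 CPM in the others. Foxf2 was at 2.45 CPM in triple sample 4, against 0.317 to 0.601 CPM in the others. Foxj1 was at 1.11 CPM in triple sample 5, and the other triple samples lay between 0.0667 and 0.353 CPM. The outlying sample was a different one for each gene.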

How the results depend on the processing

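The double group held 2 samples that differed widely, and this limits every value here: without double sample 1, 315 of 18638 genes were called, and without double sample 2, 5579 of 18893. The forkhead count was 1 higher and 3 lower with RLE scaling and under both filters, 1 and 4 by DESeq2, which added Foxo3, 1 and 2 by limma-voom, 1 and 1 with the code as a term, 1 and 5 within code SN930 and 0 and 0 within the other codes. Leaving out each sample gave 0 to 1 higher and 0 to 9 lower, the lowest without double sample 1. Over all settings the log2 fold change was 1.31 to 3.26 for Foxf1, -1.88 to -1.08 for Foxc1, -2.48 to -0.48 for Foxo1 and -4.19 to -1.47 for Foxo6, and the call was lost in 6, 3, 10 and 6 of 16 settings. By limma-voom Foxo1 was not called (adjusted p = 0.0886), and with the code as a term neither Foxo1 nor Foxo6 was (adjusted p = 0.0580 and 0.0581). With the code as a term 962 of 17709 genes were called in all, against 1478 in the main fit. Forkhead counts that are lower in a fit stand beside such falls. Within the other codes almost no gene of any kind was called, so the lack of forkhead calls there cannot speak against the members. The sign turned for 6 members that were not called. Within code SN930 it was -0.16 for Foxf2, -0.025 for Foxp1 and 1.12 for Foxs1, and within the other codes 0.12 for Foxj3, 0.10 for Foxn3 and 0.73 for Foxp2. Leaving out each sample gave -0.59 to 2.78 for Foxf2, -1.23 to 0.18 for Foxj3, -1.53 to 0.14 for Foxn3, -1.92 to 0.66 for Foxp2 and -2.04 to 0.81 for Foxs1. List calls ranged, on leaving out each sample, from 0 to 16 for FoxO targets, 0 to 9 for PI3K and AKT, 0 to 3 for Hedgehog, 0 to 2 for motile cilia, 0 to 6 for leukocytes, 3 to 10 for embryonic muscle, 0 to 3 for adult muscle, and 0 to 1 for mesothelium, endothelium, fibroblasts and lung epithelium. The causes were not tested. Within code SN930 and without double sample 2 the median over all genes was 0.12 and 0.15. The 7 correlations kept their sign in both alternatives, and none passed an adjusted p of 0.05 with a prior count of 0.5. No paired analysis was possible because replicate numbers were assigned in accession order and pair no samples.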

Other observations

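Some genes beside forkhead loci varied widely between samples without being called. Mylk2, the skeletal muscle myosin light chain kinase 8830 bases from Foxs1, was at 0.629 to 90.5 CPM in the triple samples, against 345 and 11.4 CPM in double samples 1 and 2 (log2 fold change -2.68 ± 1.50, SE; edgeR adjusted p = 0.271). Acacb, an acetyl-CoA carboxylase 3403 bases from Foxn4, had a log2 fold change of -2.99 ± 1.11 (SE; edgeR adjusted p = 0.124). Foxo6os, an antisense gene 4001 bases from Foxo6, was at 0 to 0.728 CPM in the triple samples, against 1.13 and 0.144 CPM in the double samples (log2 fold change -1.82 ± 1.34, SE; edgeR adjusted p = 0.396).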
